A study of Homo sapiens with 6 samples.

Results

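ANGPTL4 and a group of hypoxia and lipid target genes were examined in ARPE-19, an established line of human retinal pigment epithelial (RPE) cells. The 10 genes are ANGPTL4, the PPAR targets PDK4, CPT1A and PLIN2, and the hypoxia targets CA9, CA12, ADM, NDRG1, BNIP3 and EGLN3. They were found by gene symbol among the 58735 genes of the deposited count table, and all 10 passed the low-count filter that left 13787 genes for testing. ANGPTL4 was chosen by its counts, which were higher in the cells overexpressing CD51-ICD, and the other genes were selected with their counts in the same comparison known. The differences of the 10 genes between the groups are therefore given as descriptions, with no test.

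The comparison set 3 control libraries (NC, genotype WT) against 3 libraries labelled OE_CD51_ICD (genotype CD51_ICD over expression), written OE from here on. CD51 is another name of integrin alpha V, and the labels leave ICD unexplained. The construct, its vector, the time after its introduction, the oxygen level and whether a line is 1 clone are not in the labels, nor is whether the libraries came from separate cultures. The p-values rest on differences among libraries that may be technical repeats, and cover no more than that spread. RNA was taken with either of 2 kits, and which kit served which library is not stated.

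Total counts ran from 13616694 to 16934668 per library, and 3.60% to 5.07% of counts were mitochondrial. ITGAV, the gene of CD51, was at 98.4 ± 12.9 CPM (counts per 1000000 counts of the library, mean ± SD, n = 3) in NC and 448 ± 83.5 CPM in OE, and reads of the construct and of the endogenous gene cannot be told apart in it. Of 13787 genes tested with edgeR's quasi-likelihood test, 3469 had higher and 3559 lower levels in OE (Benjamini-Hochberg adjusted p under 0.05), together 51% of all genes. Of 11 RPE markers, 7 were tested and RPE65, which encodes the visual cycle isomerase, and TTR had no count in any library. RLBP1 and PMEL were higher and MITF was lower in OE (edgeR), and the RLBP1 call was lost without NC replicate 1 (adjusted p = 0.0746) or OE replicate 1 (0.0783). KRT8 and KRT18 made up most of the summed level of the RPE list, which was 5156 to 5613 CPM in NC and 4624 to 5349 CPM in OE. No marker of fat cells was tested, and their 5 genes summed to at most 0.142 CPM in an NC library and 0.263 CPM in an OE library. The 5 endothelial markers summed to 2.14 to 2.83 CPM in NC and 0.572 to 1.57 CPM in OE. Of 6 microglial markers only CSF1R was tested, at 3.60 ± 0.894 and 32.9 ± 3.34 CPM (adjusted p = 4.84e-16, edgeR), and the list summed to 3.04 to 4.60 CPM in NC and 31.3 to 37.0 CPM in OE. P2RY12, which defines microglia, had no count, and PTPRC had none in NC and 1 in OE. Of 7 fibroblast markers only PDGFRB was tested, at 223 ± 13.2 and 389 ± 21.9 CPM (adjusted p = 8.92e-10, edgeR), and DCN and DPT had no count. That list summed to 213 to 238 CPM in NC and 375 to 415 CPM in OE. The part of these markers in the results below was not tested. In bulk RNA, fewer cells that express a gene and less RNA per cell cannot be told apart.

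Hypoxia-inducible factors (HIFs) are pairs of an alpha subunit and ARNT. With oxygen present, prolyl hydroxylases mark the alpha subunit for destruction through VHL. When the subunit is spared, the pair binds a short core in its target genes, which serve glycolysis, pH control, blood vessel growth and mitochondrial turnover. The peroxisome proliferator-activated receptors (PPARs) are nuclear receptors for fatty acids. Together with RXR they bind paired repeats and drive genes of fatty acid uptake, storage and oxidation. ANGPTL4, a secreted inhibitor of lipoprotein lipase, is a known target of both pathways and also of the glucocorticoid receptor and TGF-beta. RPE cells oxidise fatty acids from the photoreceptor membranes they take up.

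The promoter windows of the genes show where ACGTG, a form of the HIF core, lies, and the 4 genes that carry it are printed for that reason. RefSeq windows (GRCh38.p14, 250 bases before to 50 after the start site) were found for 9 of the 10 genes. Other forms of the core, such as GCGTG, were not searched and are not marked. The core searched was ACGTG on either strand, so it reads CACGT where it lies on the other strand, and a palindromic site matches on both. It was present in ANGPTL4, CA9, BNIP3 and PLIN2 and not in CA12, ADM, EGLN3, PDK4 or CPT1A, and 21.4% of 35116 windows in the table hold it. The windows around each core are given from 5′ to 3′ on the gene's strand, with the core in capitals.
ANGPTL4, chr19:8363909-8363937, + strand: ggaaagaagagtCACGTctcccacggttc
CA9, chr9:35673898-35673926, + strand: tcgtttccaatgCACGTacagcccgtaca
BNIP3, chr10:131982040-131982069, - strand: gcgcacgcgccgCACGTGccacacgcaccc
PLIN2 distal, chr9:19127596-19127624, - strand: gagggcgccgggACGTGcccgagggtgac
PLIN2 proximal, chr9:19127544-19127573, - strand: gctgccgcgggtCACGTGctgcggaggctt
The first base of the core lay 18 bases before the start site in CA9, 134 in BNIP3, 120 and 69 in PLIN2, and 234 in ANGPTL4. Both BNIP3 and the proximal PLIN2 site are the palindrome CACGTG, which other basic helix-loop-helix factors can also bind. In GENCODE 29 the CA9 window lies in an exon of CA9 transcripts that start further upstream and of the opposite-strand gene ARHGEF39, the proximal PLIN2 window touches an exon of 1 PLIN2 transcript, the distal one lies in an intron of 1 transcript, and the BNIP3 window lies outside annotated exons. A match is a description of the letters and no evidence of binding in these cells.

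The sequence before the main start of ANGPTL4 is given at greater length, since its gene had the largest fold change of the 10. It covers chr19:8363905-8364144 on the + strand, with the core in capitals.
ANGPTL4 upstream: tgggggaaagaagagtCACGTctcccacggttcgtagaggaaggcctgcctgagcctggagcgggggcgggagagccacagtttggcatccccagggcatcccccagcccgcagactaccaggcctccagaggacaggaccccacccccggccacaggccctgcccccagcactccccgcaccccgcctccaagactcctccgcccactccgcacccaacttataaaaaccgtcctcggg
Of 11 ANGPTL4 transcripts in GENCODE 29, 7 start after this stretch and 4 start before it, which places it in an intron of those 4. The PPAR element searched was AGGTCA repeated after any 1 base, on either strand. It was in the window of none of the 9 genes and in 8 of 35116 windows (0.0228%), so these windows say little about PPAR sites. Among promoters of the other HIF targets, ACGTG was in 11 of 24 glycolytic genes (45.8%) and 20 of 32 others (62.5%). ACGTG was in 3 of 43 PPAR targets (6.98%) and in 21.4% of all windows. The HIF lists hold known HIF targets, so their larger shares say nothing about these cells. All list genes with a window were counted, tested or not, and no difference between the shares was tested.

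ANGPTL4 (ENSG00000167772, chromosome 19, 8363289 to 8374373, + strand, GRCh38) was close to silent in NC. Its level was 0.579, 0.496 and 1.22 CPM in NC replicates 1, 2 and 3, from 10, 7 and 18 counts. In OE it was 31.9, 27.9 and 58.2 CPM, from 484, 408 and 814 counts. Every OE library was above every NC library, and replicate 3 was the highest of its group in both. In the fit, the log2 fold change was 5.68 ± 0.28 (SE), or 51.2-fold, the 7th largest value among 13787 genes. Within OE the highest library was 2.09 times the lowest, a coefficient of variation of 41.9%. The fitted difference was 5.29 without OE replicate 3 and 6.15 without NC replicate 3. The antisense gene RAB11B-AS1 touches the end of the locus, with 53 counts over NC and 75 over OE.

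**Figure D1:**
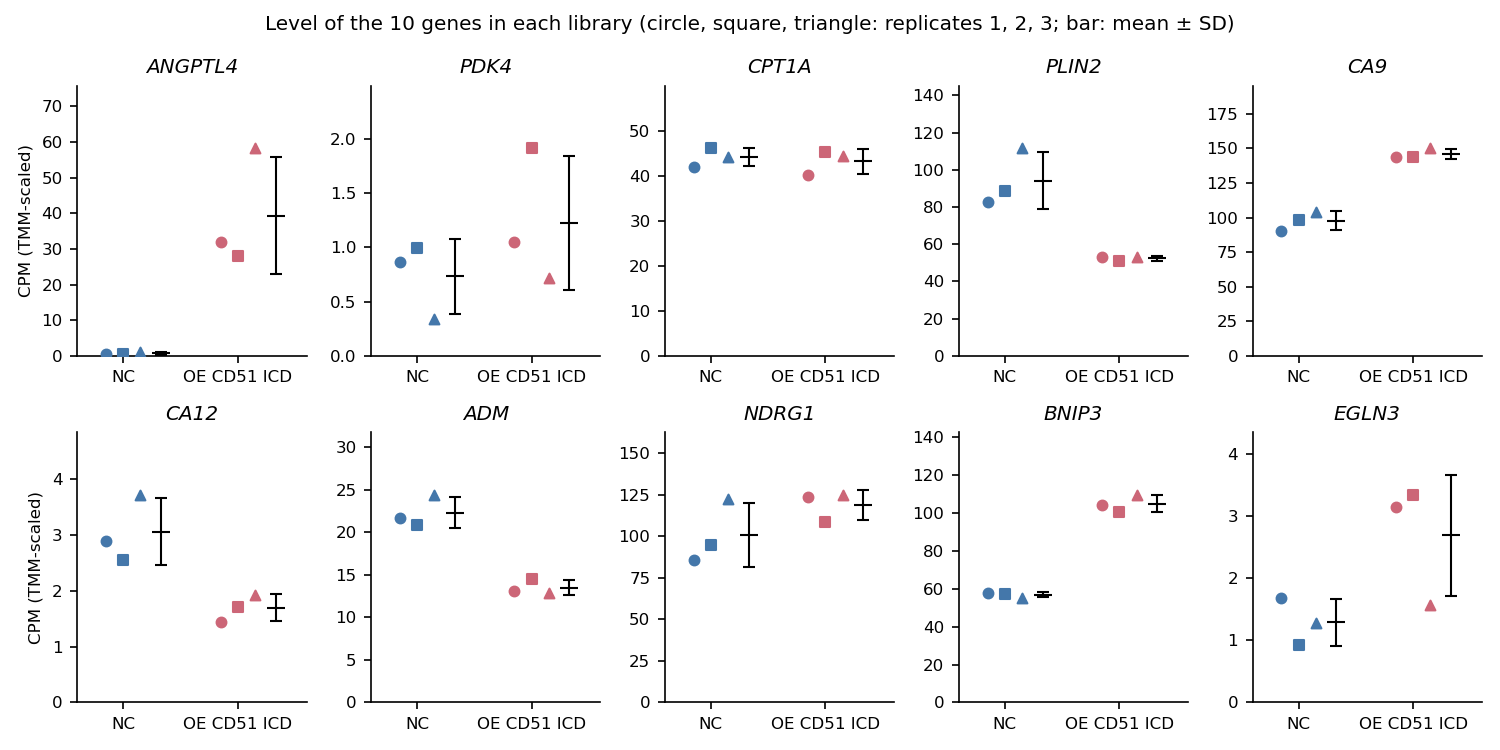
Level of each of the 10 genes in CPM (after TMM scaling, linear axis from 0) in the 3 NC and 3 OE libraries, with the mean ± SD beside the points. The groups do not overlap for ANGPTL4, PLIN2, CA9, CA12, ADM and BNIP3, and they overlap for PDK4, CPT1A, NDRG1 and EGLN3.

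Of the 10 genes, 6 had groups that did not overlap, 3 of them higher and 3 lower in OE; the groups did not overlap in 57.5% of all genes tested. The 3 higher genes were ANGPTL4, CA9 and BNIP3, and the 3 lower genes were PLIN2, CA12 and ADM. Of the genes with ACGTG in their window, ANGPTL4, CA9 and BNIP3 were higher and PLIN2, with ACGTG at 2 places, was lower. Of those with a window and no ACGTG in it, CA12 and ADM were lower. EGLN3, PDK4 and CPT1A, also with no ACGTG there, had groups that overlapped. HIF sites outside the windows, and sites within them with another form of the core, were not searched. A relation of ACGTG and direction was not tested.

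Of the PPAR targets PDK4, CPT1A and PLIN2, none had a higher level in OE with groups that did not overlap. PLIN2, the protein coat of lipid droplets (ENSG00000147872, chromosome 9, 19108375 to 19149290), was at 82.7, 88.4 and 112 CPM in NC and 53.1, 50.98 and 53.2 CPM in OE. All OE libraries were below all NC libraries and lay close together. The log2 fold change was -0.84 ± 0.10 (SE), which is 1.80-fold lower.

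CPT1A, which links long-chain fatty acids to carnitine for entry into the mitochondrion (ENSG00000110090, chromosome 11, 68754620 to 68844410), was at 42.0, 46.1 and 44.2 CPM in NC and 40.1, 45.3 and 44.3 CPM in OE. These ranges overlap almost fully. As fitted, the log2 fold change was -0.03 ± 0.10 (SE), and the 183 other tested genes within 5 Mb had a median of 0.09.

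PDK4, a kinase that shuts pyruvate dehydrogenase when fatty acids are burnt (ENSG00000004799, chromosome 7, 95583499 to 95596491), had few counts. It was at 0.868, 0.991 and 0.338 CPM in NC, from 15, 14 and 5 counts, and at 1.05, 1.91 and 0.715 CPM in OE, from 16, 28 and 10. The groups overlapped, and replicate 3 was the lowest of both groups, where ANGPTL4 was the highest. The fit gave a log2 fold change of 0.74 ± 0.45 (SE), 0.29 without OE replicate 2 and 0.40 without NC replicate 3. A difference of this size was not resolved at this depth.

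The carbonic anhydrase genes of the hypoxia response, which encode cell-surface enzymes that hydrate CO2 and take part in pH control, had log2 fold changes of opposite sign. CA9 (ENSG00000107159, chromosome 9, 35673856 to 35681159) was at 90.4, 98.3 and 104 CPM in NC and 144, 144 and 150 CPM in OE. Its groups were well apart, with a fitted log2 fold change of 0.58 ± 0.08 (SE), or 1.49-fold. CA9 was already the most abundant of the 10 genes per length in NC. Its locus overlaps the opposite-strand gene ARHGEF39, with 368 counts over NC and 207 over OE against 4493 and 6385 for CA9.

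CA12 (ENSG00000074410, chromosome 15, 63321378 to 63382161) was at 2.89, 2.55 and 3.72 CPM in NC and 1.45, 1.71 and 1.93 CPM in OE. All OE libraries were below all NC libraries, on 141 counts over NC and 74 over OE. In the fit, the log2 fold change was -0.85 ± 0.28 (SE), or 1.80-fold lower.

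ADM, the precursor of the vasodilator peptide adrenomedullin (ENSG00000148926, chromosome 11, 10304680 to 10307397), was at 21.6, 20.9 and 24.4 CPM in NC. In OE it was at 13.1, 14.5 and 12.9 CPM, below every NC library. The log2 fold change was -0.73 ± 0.13 (SE), or 1.65-fold lower. The 60 other tested genes within 5 Mb had a median of the opposite sign, 0.49. The 791 others on chromosome 11 had a median of 0.21, against 0.01 over all genes. The median within 5 Mb was also opposite in sign to the gene for ANGPTL4 (-0.25), BNIP3 (-0.27), PLIN2 (0.24), CA12 (0.08) and CPT1A (0.09). Of the genes for the adrenomedullin receptor, CALCRL and RAMP3 had 1 and 0 counts over NC and 2 and 0 over OE. RAMP2 had 29 and 15 counts, so receptor transcripts were near or below what this depth can test.

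BNIP3, a mitochondrial membrane protein of cell death and mitophagy (ENSG00000176171, chromosome 10, 131966455 to 131982013), was at 57.9, 57.3 and 55.3 CPM in NC and 104, 101 and 110 CPM in OE. It had the smallest coefficient of variation in NC among the 10 genes, 2.41%, and the groups were far apart. As fitted, the log2 fold change was 0.88 ± 0.09 (SE), or 1.84-fold. Its many processed pseudogenes held few counts, at most 15 over a group for BNIP3P1, against 2628 over NC and 4590 over OE for BNIP3, although reads shared with them cannot be told apart.

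NDRG1, a hypoxia- and stress-induced protein (ENSG00000104419, chromosome 8, 133237171 to 133302022), was at 85.8, 94.7 and 123 CPM in NC and 124, 109 and 125 CPM in OE. NC replicate 3 lay within the OE range, and the other NC libraries below it. The fit gave a log2 fold change of 0.24 ± 0.10 (SE), 0.40 without NC replicate 3 and 0.13 without NC replicate 1.

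EGLN3, a prolyl hydroxylase that HIF induces and that acts on HIF alpha (ENSG00000129521, chromosome 14, 33924231 to 34462774), was at 1.68, 0.920 and 1.28 CPM in NC and 3.16, 3.35 and 1.57 CPM in OE. OE replicate 3 lay within the NC range and the other OE libraries above it. In the fit, the log2 fold change was 1.04 ± 0.33 (SE), on 61 counts over NC and 119 over OE. The locus overlaps SPTSSA on the same strand, which held 691 and 735 counts, more than EGLN3 itself.

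**Figure D2:**
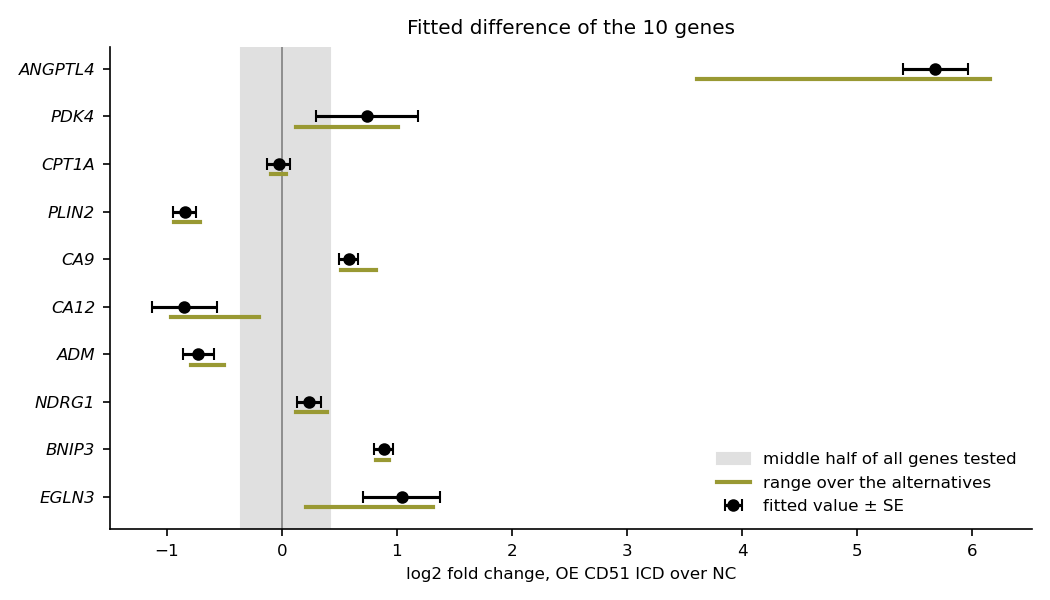
Fitted log2 fold change of OE over NC for the 10 genes (points, with SE bars), the range over the processing alternatives (line under each point) and the quartiles of all genes tested (grey, -0.36 to 0.42). ANGPTL4 is at 5.68, and the other genes lie between -0.85 and 1.04.

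Without ANGPTL4 the hypoxia and PPAR genes of the group thus differed by about 2-fold or less in either direction. The 6 hypoxia targets had a median log2 fold change of 0.41 and a range of -0.85 to 1.04. The 3 PPAR targets had a median of -0.03 and a range of -0.84 to 0.74. Over all genes tested the median was 0.01. These medians rest on the chosen genes and carry no test.

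Replicate differences within a group were not shared by the 10 genes. In OE, replicate 3 was the highest library for 6 genes and the lowest for PDK4, EGLN3 and ADM. In NC, replicate 3 was the highest for 6 genes and the lowest for PDK4 and BNIP3.

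Compared per length in the deposited FPKM (fragments per kilobase of gene, scaled to library size), ANGPTL4 moved furthest in the order of the genes. In OE, PLIN2 also came to stand after BNIP3 and NDRG1, ADM after CPT1A, and CA12 after EGLN3 and PDK4. CA9 led in both groups, at 58.1 ± 4.31 FPKM in NC and 86.3 ± 3.03 FPKM in OE. In NC it was followed by PLIN2 at 18.4 FPKM, BNIP3 at 10.6, NDRG1 at 10.2, ADM at 8.15 and CPT1A at 6.67, and the ranges of BNIP3 and NDRG1 and of NDRG1 and ADM overlapped. A gap of over 10-fold separated these from CA12 at 0.415, ANGPTL4 at 0.306, EGLN3 at 0.175 and PDK4 at 0.161 FPKM, each of which overlapped the next. ANGPTL4 ranked 11206 of 19951 protein-coding genes in NC, where 15047 had a value above 0.

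In OE, ANGPTL4 was at 15.7 ± 6.75 FPKM and ranked 2339 of the protein-coding genes. It stood after BNIP3 at 19.5 FPKM and before NDRG1 at 11.98, with ranges that overlapped both. PLIN2 at 10.2, CPT1A at 6.50 and ADM at 4.90 FPKM followed, each apart from its neighbour. EGLN3, PDK4 and CA12 stayed at the bottom with 0.361, 0.267 and 0.229 FPKM and were not separated from each other by their ranges.

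**Figure D3:**
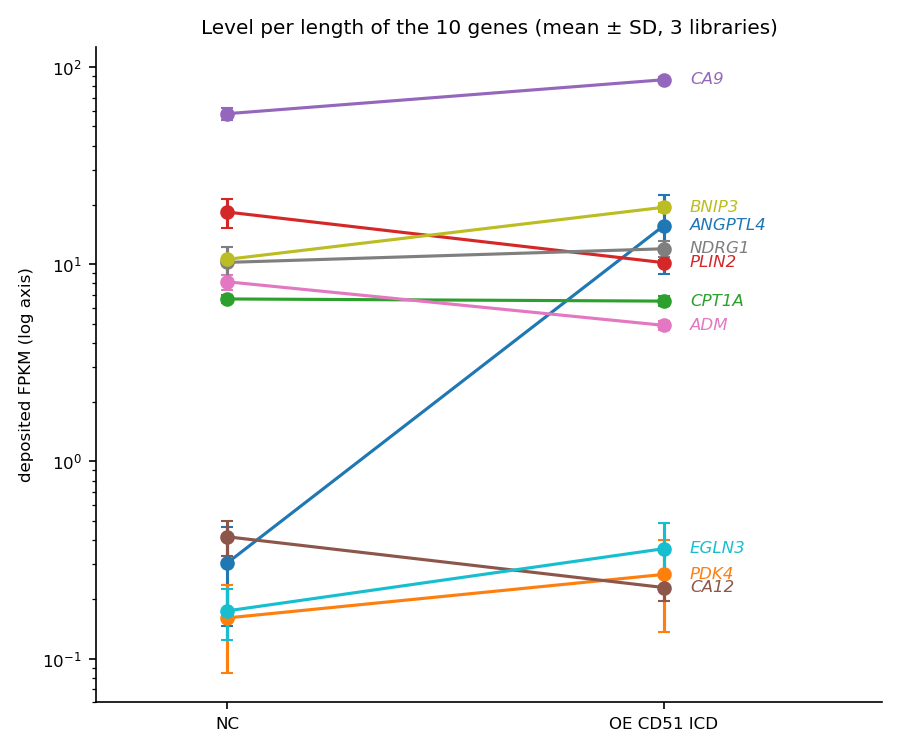
Level per length of the 10 genes in deposited FPKM (log axis) in NC and OE, mean ± SD over 3 libraries. ANGPTL4 goes from 0.306 to 15.7 FPKM while CA9 stays highest and EGLN3, PDK4 and CA12 stay under 1 FPKM.

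The genes with the pattern most like ANGPTL4 were sought by the Pearson correlation of log2(CPM + 0.5) over the 6 libraries, among 9573 protein-coding genes whose mean reached 5 CPM. The highest were PLPPR2, HMOX1, TSPAN14, LRP4 and PDXK, with r of 0.998 to 0.999. HMOX1, haem oxygenase, was at 19.03, 18.7 and 22.03 CPM in NC and 41.9, 41.9 and 50.6 CPM in OE, with replicate 3 the highest of each group as for ANGPTL4. PLPPR2 was at 73.7 ± 1.74 and 95.6 ± 2.18 CPM and TSPAN14 at 144 ± 9.20 and 281 ± 14.7 CPM. LRP4 was at 8.34 ± 0.506 and 16.5 ± 1.45 CPM and PDXK at 267 ± 7.86 and 385 ± 22.9 CPM. The 6 points fall into the study's groups, so a high r goes with any steady difference between them, and 761 genes had an r of at least 0.95.

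Other HIF targets outside glycolysis were mostly higher in OE. Of 42 genes of that list 37 were tested, of which 26 were higher (70.3%), 6 lower (16.2%) and 5 did not pass (edgeR, adjusted p under 0.05), against 25.2% higher and 25.8% lower over all genes. The median log2 fold change of the list was 0.75, against 0.01 over all genes, and 14 genes were higher by at least 2-fold. This list and those below were chosen with earlier results of these data known. Their shares and medians are therefore descriptions, and no list was tested as a set. The adjusted p-values of their genes come from the same data and give no independent support. VEGFA, the vascular growth factor, rose from 31.8 ± 3.93 to 270 ± 4.41 CPM (log2 3.09, adjusted p = 1.01e-21, edgeR). BHLHE40, a transcriptional repressor, rose from 68.3 ± 2.08 to 368 ± 17.9 CPM. CITED2, which competes with HIF for its coactivator, fell from 337 ± 15.6 to 110 ± 1.99 CPM. STC2, a secreted glycoprotein, fell from 107 ± 14.5 to 47.4 ± 6.41 CPM and ZNF395 from 76.9 ± 3.30 to 35.0 ± 6.91 CPM. EPO, the classical HIF target of kidney and liver, had 3 counts over NC and none over OE and was not tested.

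All 25 glycolytic HIF targets were tested, and 11 were higher (44%), 4 lower (16%) and 10 did not pass, against 25.2% and 25.8% over all genes, with a median log2 fold change of 0.17. PFKFB4, which makes an activator of phosphofructokinase, rose from 15.7 ± 3.04 to 37.2 ± 6.11 CPM (log2 1.25, adjusted p = 6.68e-09, edgeR). LDHA, lactate dehydrogenase A, on chromosome 11, rose from 1245 ± 135 to 2853 ± 66.0 CPM, and PPP1R3C, a glycogen-targeting subunit, from 6.67 ± 0.968 to 13.8 ± 2.14 CPM. The 4 lower genes were HK2 (24.5 ± 2.52 to 17.7 ± 1.52 CPM), ENO2, PFKL and ENO1. The PFKL call was lost with the GC trend removed (adjusted p = 0.922; 1.09e-04 to 0.922 over its alternatives, edgeR, DESeq2 and limma).

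Of 62 PPAR targets, many of them specific to liver, muscle or fat, 40 were tested. Of these, 6 were higher (15%), 14 lower (35%) and 20 did not pass, against 25.2% and 25.8% over all genes, with a median log2 fold change of -0.11. The largest rise was in SCD, stearoyl-CoA desaturase, which is also a target of SREBP and LXR factors, from 311 ± 28.6 to 1403 ± 30.2 CPM (log2 2.17, adjusted p = 3.06e-19, edgeR). ACSL3, an acyl-CoA synthetase, rose from 13.6 ± 2.54 to 24.7 ± 2.62 CPM. IMPA2 fell from 30.6 ± 2.74 to 12.6 ± 1.66 CPM, LIPE, hormone-sensitive lipase, from 15.7 ± 0.323 to 7.19 ± 0.788 CPM, and ECI1, an enzyme of mitochondrial fatty acid oxidation, from 109 ± 7.44 to 61.8 ± 7.68 CPM.

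**Figure D4:**
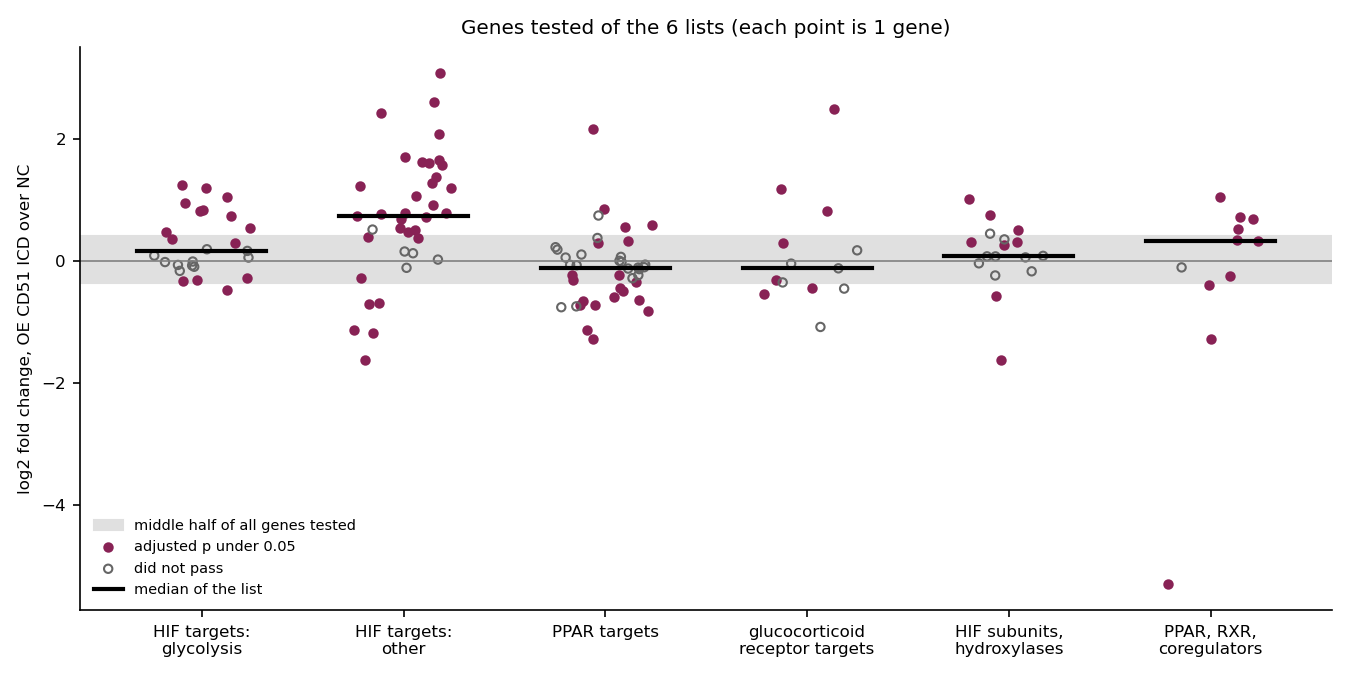
Log2 fold change of OE over NC for each gene tested of 6 lists (filled, adjusted p under 0.05; open, did not pass), with the median of each list (black line) and the quartiles of all genes tested (grey). The HIF targets outside glycolysis have a median of 0.75, the glycolytic ones 0.17 and the PPAR targets -0.11.

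Of 14 glucocorticoid receptor targets 13 were tested, and 4 were higher (30.8%), 3 lower (23.1%) and 6 did not pass, with a median of -0.12. These shares are near the 25.2% and 25.8% over all genes. SGK1, a serum- and glucocorticoid-regulated kinase, rose from 8.87 ± 0.745 to 50.2 ± 10.04 CPM (log2 2.50, adjusted p = 1.95e-15, edgeR), with MT1X, a metallothionein, and TSC22D3, GILZ, at 1.19 and 0.82. NFKBIA fell by 0.53 and GLUL by 0.30 on the log2 scale. FKBP5, a chaperone of the receptor and one of its most used target genes, was at 10.3 ± 0.351 and 7.59 ± 1.99 CPM (adjusted p = 0.0397, edgeR), a call that was lost under 10 of 20 alternatives (adjusted p = 0.00129 to 0.248, edgeR, DESeq2 and limma). These include leaving out any 1 library other than OE replicate 2, with adjusted p of 0.0543 to 0.179 (edgeR).

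Among genes of the HIF pathway itself, HIF1A, the oxygen-regulated alpha subunit, was at 206, 161 and 145 CPM in NC and 340, 409 and 284 CPM in OE, a rise of log2 1.01 ± 0.11 (SE, adjusted p = 6.48e-09, edgeR). Its protein level, which oxygen controls, was not measured. EPAS1, the alpha subunit of HIF-2, was at 94.1, 98.5 and 130 CPM in NC and 112, 114 and 114 CPM in OE and did not pass (adjusted p = 0.521, edgeR), although without NC replicate 3 it did (adjusted p = 0.0385; 0.0385 to 0.930 over its alternatives, edgeR, DESeq2 and limma). HIF3A had no count.

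Of the 18 genes of the HIF pathway list, 17 were tested, and 6 were higher (35.3%), 2 lower (11.8%) and 9 did not pass. The share called is near the 51% over all genes. ARNT, the partner subunit, went from 34.0 ± 2.98 to 42.5 ± 2.08 CPM, and VHL from 50.4 ± 5.38 to 62.5 ± 2.83 CPM. Both calls were lost under 3 of 20 alternatives (edgeR, DESeq2 and limma): ARNT without NC replicate 2 (adjusted p = 0.0866, the highest) or OE replicate 1 (0.0530), and VHL without NC replicate 1 (0.0792, the highest) or OE replicate 1 (0.0521). EGLN1, the main HIF prolyl hydroxylase and itself a HIF target, rose from 35.8 ± 2.42 to 51.1 ± 4.06 CPM, and SIAH2, a ubiquitin ligase that acts on prolyl hydroxylases, from 23.3 ± 0.9997 to 39.4 ± 1.88 CPM. The 2 lower genes were CITED2 and ARNT2, the latter from 97.0 ± 6.31 to 65.4 ± 5.85 CPM. The number higher was 3 without OE replicate 1, and the number lower was 4 without OE replicate 3.

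**Figure D5:**
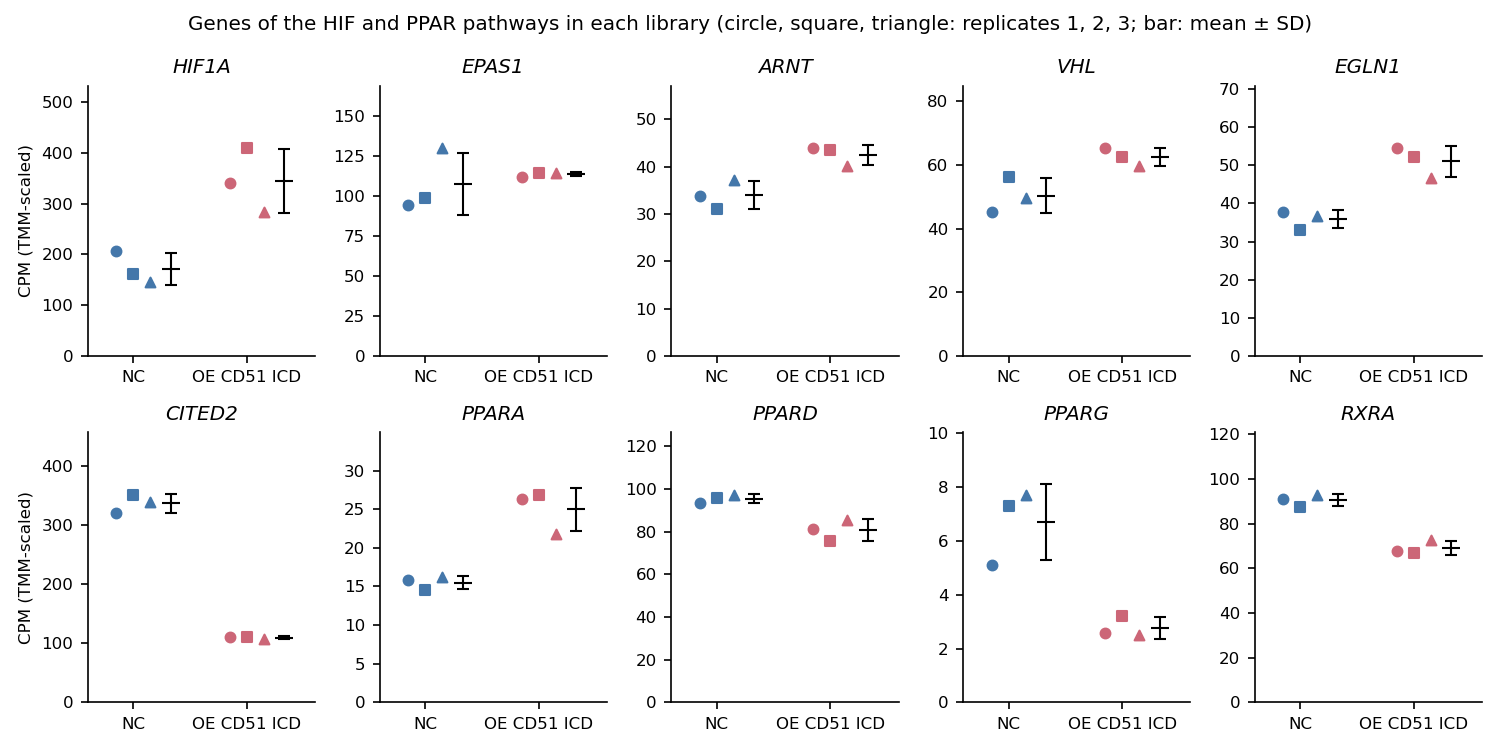
Level of HIF1A, EPAS1, ARNT, VHL, EGLN1, CITED2, PPARA, PPARD, PPARG and RXRA in CPM (linear axis from 0) in each library, with the mean ± SD. HIF1A is higher and CITED2 and PPARG are lower in every OE library than in every NC library, and the groups overlap for EPAS1.

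The 3 PPAR genes differed in direction. PPARA, the receptor of fatty acid oxidation, was at 15.8, 14.5 and 16.2 CPM in NC and 26.3, 26.9 and 21.7 CPM in OE, a rise of log2 0.69 ± 0.13 (SE, adjusted p = 4.62e-05, edgeR). PPARG, the receptor of fat cell formation, was at 5.09, 7.29 and 7.70 CPM in NC and 2.57, 3.21 and 2.50 CPM in OE, a fall with a log2 fold change of -1.27 ± 0.22 (SE, adjusted p = 2.22e-05, edgeR). PPARD, the most abundant of the 3 at 21.2 FPKM in NC and 17.9 FPKM in OE, had a log2 fold change of -0.24 (adjusted p = 0.0193, edgeR). Its partner RXRA was at 90.4 ± 2.74 and 69.1 ± 3.06 CPM. With the GC trend removed the PPARD and RXRA calls were lost (adjusted p = 0.836 and 0.0777; 0.00229 to 0.836 and 4.90e-05 to 0.0777 over their alternatives, edgeR, DESeq2 and limma). The PPARD call was also lost without NC replicate 2 (adjusted p = 0.0603, edgeR), OE replicate 1 (0.0956) or OE replicate 2 (0.104).

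Among the coregulators, PPARGC1A, a coactivator of PPARs in mitochondrial and fatty acid oxidation genes, had 40, 30 and 28 counts in NC and 1, 1 and 0 in OE. The ratio of NC over OE was 46.5, with an exact 95% interval of 12.5 to 389 that covers counting error only (adjusted p = 1.97e-08, edgeR). The coactivator NCOA2 rose from 8.21 ± 0.575 to 13.5 ± 2.55 CPM. Of 13 genes of receptors and coregulators 11 were tested, and 6 were higher (54.5%), 4 lower (36.4%) and 1, RXRB, did not pass, against 25.2% and 25.8% over all genes. With no low-value filter, limma on log2(FPKM + 1) called 2 higher, and the number lower was 2 with the GC trend removed.

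Of 36 paralogs of the 10 genes, some of which stand in other lists too, 19 were tested. Of these, 6 were higher (31.6%), 3 lower (15.8%) and 10 did not pass, so that no larger share was called than the 51% over all genes. PDK1, the HIF-induced pyruvate dehydrogenase kinase, rose from 14.0 ± 1.39 to 27.2 ± 2.33 CPM (adjusted p = 2.85e-07, edgeR), PDK2 was at 57.4 and 49.5 CPM and did not pass, and PDK3 was at 5.67 and 7.78 CPM (adjusted p = 0.0428, edgeR), a call lost under 13 of 20 alternatives. The PDK3 call was lost without NC replicate 1 or 2 or OE replicate 2 or 3 (adjusted p = 0.0635 to 0.179, edgeR), and PDK2 passed without NC replicate 2 (adjusted p = 0.0484, edgeR). BNIP3L, the mitophagy receptor next to BNIP3 in sequence, rose from 40.5 ± 1.69 to 93.3 ± 6.37 CPM. NDRG4 fell from 87.3 ± 12.8 to 27.2 ± 1.77 CPM and NDRG2 from 7.02 ± 1.28 to 2.92 ± 0.817 CPM, while NDRG3 was at 48.4 and 51.7 CPM and did not pass. The lipid droplet gene PLIN3 was at 230 ± 4.29 and 220 ± 25.5 CPM and EGLN2 at 6.96 and 7.41 CPM, and neither passed. ANGPTL7 rose from 4.43 ± 0.414 to 20.9 ± 4.20 CPM, and CA11 fell from 45.5 ± 5.06 to 20.5 ± 3.03 CPM. CPT1C was at 30.6 and 36.9 CPM (adjusted p = 0.0309, edgeR), lost under 9 of 20 alternatives, among them leaving out any 1 library other than OE replicate 2 (adjusted p = 0.0623 to 0.0854, edgeR).

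The enzymes that ANGPTL4 acts on were unevenly present. LPL, lipoprotein lipase, had no count in any library, which allows up to 0.0649 CPM over NC and 0.0685 CPM over OE. Its anchor GPIHBP1 had 6 counts over NC and none over OE. LIPG, endothelial lipase, rose from 10.5 ± 2.48 to 26.8 ± 1.98 CPM (adjusted p = 7.70e-09, edgeR), and FURIN, a proprotein convertase that can cleave ANGPTL4, from 255 ± 4.41 to 474 ± 56.3 CPM. ACKR3, a scavenging receptor that also binds adrenomedullin, rose from 70.8 ± 11.1 to 117 ± 10.1 CPM. On the path served by CPT1A, CPT2 fell from 20.1 ± 2.89 to 13.4 ± 1.43 CPM and MLYCD, which removes the CPT1 inhibitor malonyl-CoA, from 18.5 ± 1.80 to 11.2 ± 0.8501 CPM. The phosphatase gene PDP1, which opposes the PDKs, was at 24.7 and 20.1 CPM (adjusted p = 0.0411, edgeR), lost under 10 of 20 alternatives, among them without NC replicate 1 or 2 or OE replicate 1 or 3 (adjusted p = 0.107 to 0.130, edgeR). Of the 24 partner genes 16 were tested, 6 of them higher (37.5%), 3 lower (18.8%) and 7 not past the threshold, a share called that is near the 51% over all genes.

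Over all genes, the difference between the groups moved with GC content, with these medians. The 2756 tested genes richest in GC, which include ANGPTL4, CA9 and ADM, had a median log2 fold change of -0.27, and the 2757 poorest, which include PDK4, one of 0.25. With each library's GC trend removed, the log2 fold change was 5.95 for ANGPTL4, 0.82 for CA9, -0.51 for ADM and 0.50 for PDK4.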

How the data were processed

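Gene expression was measured by RNA sequencing in 6 ARPE-19 libraries, 3 per group, grouped by sample title. Library preparation used a SMARTER mRNA kit per the labels' protocols, and the build is hg38 per the submitters' processing notes. The sources used here do not give the aligner, the counting program or whether strand was used. The authors deposited whole-number gene counts and FPKM values. The deposited FPKM equalled the counts divided by gene length and 1 constant per library. All gene IDs and coordinates matched GENCODE 29.

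The count test was edgeR 4.0.16 under R 4.3.3 (filterByExpr, TMM, glmQLFit, glmQLFTest, two-sided, Benjamini-Hochberg over 13787 genes). CPM are scaled by TMM. SEs come from the F statistic. Zero counts are read against 3 counts over a group, for counting error only. Alternatives used DESeq2 1.42.0, limma 3.58.1 on voom values and on log2(FPKM + 1) or log2(FPKM + 0.1), other scalings and filters, protein-coding genes only, chromosome 11 left out, a GC correction by loess offsets, each replicate left out, and the replicate number as a block. The edgeR test was also tested on simulated counts with known changes.

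The 10 genes and all lists were chosen with earlier results of these data known. Named from each list were up to 3 called genes per direction by size of change (mean of at least 1 CPM), fixed receptors, HIF subunits and paralogs, and the 5 genes most like ANGPTL4; some genes that the rule names are not reported here. Untested genes, ENO1, RXRB, KRT8 and KRT18 were named after their values were seen. Promoters are from RefSeq. Tables used pandas 2.3.3 and NumPy 2.4.6 under Python 3.11.15, with SciPy 1.17.1 for intervals, and plots matplotlib 3.10.9.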

Additional observations from a re-analysis of the deposited data

How the results depend on the processing

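Over 20 alternatives, no direction of the 10 genes changed except that of CPT1A, whose log2 fold change lay between -0.09 and 0.03. The alternative without chromosome 11 held no value for CPT1A and ADM. On log2(FPKM + 1), with or without the filter, the values were 3.61 for ANGPTL4, -0.20 for CA12, 0.21 for EGLN3 and 0.82 for BNIP3, a scale that compresses the change of low genes. With the GC trend removed they were 0.82 for CA9, -0.51 for ADM and 0.93 for BNIP3, and BNIP3 was at 0.82 with library size as the only scaling. Leaving out 1 library at a time gave 5.29 to 6.15 for ANGPTL4, 0.29 to 1.01 for PDK4, -0.07 to 0.03 for CPT1A, -0.94 to -0.71 for PLIN2, 0.52 to 0.62 for CA9, -0.96 to -0.69 for CA12, -0.77 to -0.66 for ADM, 0.13 to 0.40 for NDRG1, 0.86 to 0.93 for BNIP3 and 0.85 to 1.32 for EGLN3.

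Over all genes, 3007 to 3641 were higher and 2936 to 3654 lower with 1 library left out. Upper-quartile scaling gave 3801 higher and 3208 lower, and library size only 2896 and 4051. Over the alternatives, 5 to 9 PPAR targets were higher and 10 to 16 lower. Of the glycolytic HIF targets 10 to 15 were higher and 3 to 6 lower, and of the other HIF targets 24 to 27 and 5 to 6. With library size only, 5 glucocorticoid targets and 4 HIF pathway genes were lower. With no low-value filter, limma on log2(FPKM + 1) gave 3 HIF pathway genes and 2 PPAR receptor and coregulator genes higher and 1 partner gene lower. With the GC trend removed, 2 PPAR receptor and coregulator genes were lower. Leaving out 1 library gave 3 to 7 HIF pathway genes higher and 2 to 4 lower. Of 62 named list genes, 47 kept their side of the threshold under every alternative run and 15 changed side. The sign changed between alternatives for EGLN2, EPAS1, NDRG3, PDK2 and PLIN3, none of which passed with all libraries and TMM scaling.

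With the replicate number as a block, 3437 genes were higher and 3552 lower, and ANGPTL4 was at 5.68. Same-numbered libraries did not deviate together (r of -0.0461, -0.000149 and 0.0453), so the numbers were not taken as a pairing. PDK4, CA12 and EGLN3 rest on 34, 141 and 61 counts over NC, which limits their precision.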
